A study of Mus musculus with 12 samples.

Results

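The genes described here serve haemoglobin and the red cell. Hba-a1 encodes an adult alpha-globin chain, and Hbb-bt and Hbb-bs encode adult beta-globin chains. Alas2 encodes the erythroid form of the first enzyme of haem synthesis, and Slc4a1 the anion exchanger of the red cell membrane, known as band 3. Members were all non-control probes whose accession maps to one of these 5 symbols. Of the 5 genes, 4 had a probe, with 1 probe and 1 spot each, and Hbb-bs had none. These 4 probes stand among 39429 probes in all, and all 4 passed the filter on dim probes, as members of the 23237 genes tested.

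Haemoglobin joins pairs of alpha-like and beta-like chains, each of which carries a haem group, and red cell precursors make the chains, the haem and the membrane proteins together. Young red cells leave the marrow without a nucleus and still carry globin mRNA, so blood that stays in the vessels of a tissue adds these transcripts to its RNA. Haemoglobin transcripts have also been described in some neurons and retinal cells. In pooled tissue such as this, fewer cells of a type and less RNA per cell cannot be told apart.

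The series measured RNA of whole mouse retina on 12 two-colour Agilent arrays, 7 days after an injection into the vitreous of the right eye. Male C57BL/6 mice aged 5 weeks received gold particles of 20 nm, gold particles of 100 nm, silicate particles of 20 nm, silicate particles of 100 nm, or phosphate-buffered saline (PBS), with 12 mice per group and 4 retinas pooled per tube, which makes 3 tubes per group. Each of 3 slides carried 1 array of every particle group, with the particle tube in the dye Cy5 and PBS in the dye Cy3 on every array, so that a dye effect of a probe cannot be told apart from an effect of particles. Sizes are taken as diameters in nm, after the growth protocol, although the sample labels write nM. For the PBS channel, the strain label reads C57BL/6 on the gold arrays and C57BL/7, C57BL/8, C57BL/9, C57BL/10, C57BL/11 and C57BL/12 on the silicate arrays, while every other strain label reads C57BL/6. All tubes, PBS included, come from injected eyes, and no uninjected retina is analysed here.

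Between 67.7% and 73.5% of probes were well above background in Cy5, and between 69% and 74.4% in Cy3. The 8 rod photoreceptor markers checked, among them Gnat1, were well above background in both dyes on all arrays, as the tissue label says. The 4 Cy3 readings of a slide were taken to come from 1 PBS tube, which is an assumption, since the labels do not say which tube lies on which array. Inflammatory cell markers set some tubes apart. The summed level of 8 neutrophil markers, of which Ngp was at background throughout and 3 were above it on all arrays, was 18.49, 10.80 and 12.64 (log2, mean of 4 readings) on the PBS side of slides 1, 2 and 3, while on slide 3 silicate of 20 nm had 17.74 and silicate of 100 nm 17.52, against 10.59 to 15.64 in the other particle tubes. The PBS value of slide 3 averages Cy3 readings that differed: 14.63 and 13.78 on the silicate arrays, and 11.06 and 11.08 on the gold arrays. The Cy5 sums of these arrays were 17.74 and 17.52 with silicate, and 10.77 and 10.59 with gold. The Cy3 readings were thus unlike on slide 3, where 1 PBS tube is assumed. Whether the tubes or the measurement differed was not tested. Cy3 readings of Hba-a1 on that slide were 14.24 and 14.24 on the silicate arrays and 14.27 and 14.27 on the gold arrays. Lcn2 alone made up 87.7% of the neutrophil sum on the PBS side of slide 3. The median Cy3 level of the 6 tested neutrophil markers there was 7.54 and 7.59 on the silicate arrays. On the gold arrays of that slide it was 7.81 and 7.74, so the step in the sum was not shared by the median marker. What sets the neutrophil readings apart was not tested.

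The stretches upstream of 3 genes that moved together, Hba-a1, Hbb-bt and Alas2, are shown first, since GATA1 and KLF1, the main transcription factors of red cell precursors, are known to bind GATA and CACCC motifs in such regions. Each is the 250 bases before the start of the gene, 5′ to 3′ in the direction of the gene, from RefSeq on GRCm38.p6. Capitals mark 3 motifs, searched on both strands, which do not overlap here. The GATA motif was searched as GATAA, which reads TTATC on the other strand. The motif of KLF1 was searched as CACCC, which reads GGGTG on the other strand. A form of the TATA box common in globin genes was searched as ATATAA.
Hba-a1, chr11:32283422-32283671, plus strand: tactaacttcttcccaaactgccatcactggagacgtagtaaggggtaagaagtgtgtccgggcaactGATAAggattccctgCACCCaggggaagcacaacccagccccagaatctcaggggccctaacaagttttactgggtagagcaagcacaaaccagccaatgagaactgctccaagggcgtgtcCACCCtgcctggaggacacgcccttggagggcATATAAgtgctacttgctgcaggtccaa
Hbb-bt, chr7:103813924-103814173, minus strand: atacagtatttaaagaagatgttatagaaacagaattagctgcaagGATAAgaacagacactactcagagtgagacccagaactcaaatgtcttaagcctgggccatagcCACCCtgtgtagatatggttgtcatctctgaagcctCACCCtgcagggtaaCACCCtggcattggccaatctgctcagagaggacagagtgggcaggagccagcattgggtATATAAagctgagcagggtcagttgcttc
Alas2, chrX:150547167-150547416, plus strand: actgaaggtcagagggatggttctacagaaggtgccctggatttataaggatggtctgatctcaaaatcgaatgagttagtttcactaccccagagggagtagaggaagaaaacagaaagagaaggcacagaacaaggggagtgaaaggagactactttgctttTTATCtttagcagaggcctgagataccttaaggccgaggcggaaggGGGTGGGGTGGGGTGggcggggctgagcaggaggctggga

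The 3 stretches held both the GATA and the CACCC motif, and so did that of Hbb-bs, which is not printed since no probe is listed for the gene. Of 32851 mouse windows of this length, 22.6% held the GATA motif, 52% the CACCC motif, 10.1% both, and 9.1% the TATA motif. The TATA motif began 28 bases before the start of Hba-a1 and 29 bases before that of Hbb-bt, and it was not among the letters of the Alas2 window. Adjacent matches of GGGTG in Alas2 run from 40 to 26 bases before the start. Slc4a1 is named only. A match is a description of letters and not a binding site. The window of Hba-a1 shared an unbroken run of 247 of its 250 bases with that of Hba-a2, the second adult alpha-globin gene, whose transcript is nearly the same. Since the transcripts of Hba-a1 and Hba-a2 are nearly the same, their probes may read each other's transcripts. The shared upstream run does not bear on this. Probes of the beta-globin genes may do so too. No probe sequences were given, so neither was checked, and all these values are given as those of the probe.

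The alpha-globin probe of Hba-a1 was bright in every tube, and its level ranged over 3.82-fold among the particle tubes and over 3.08-fold between the PBS sides of the slides. Levels here are normalized log2 intensities of one channel, and a difference of 1 is a doubling. Hba-a1 had levels of 13.27, 12.10 and 12.31 in the gold 20 nm tubes of slides 1, 2 and 3, of 13.04, 12.44 and 12.73 in the gold 100 nm tubes, of 12.77, 14.04 and 12.61 in the silicate 20 nm tubes, and of 12.58, 12.53 and 12.57 in the silicate 100 nm tubes. Its PBS level was 12.63, 13.28 and 14.26 on slides 1, 2 and 3. The silicate 20 nm tube of slide 2 was the highest particle tube, 0.76 above the next, and the gold 20 nm tube of slide 2 the lowest. Particle tubes and PBS overlapped on slides 1 and 2, while on slide 3 all 4 particle tubes lay below PBS. Scanner signals, before correction, ran from 4480 to 16937 in Cy5 and from 5920 to 17205 in Cy3, far above local backgrounds of 31 to 66.

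The log2 ratio of Hba-a1, particle over PBS, differed by slide, as the PBS levels did. It was 0.60, -1.19 and -1.96 on slides 1, 2 and 3 with gold at 20 nm, 0.38, -0.82 and -1.54 with gold at 100 nm, 0.14, 0.74 and -1.63 with silicate at 20 nm, and -0.01, -0.73 and -1.67 with silicate at 100 nm. On slide 1 the 4 ratios ran from -0.01 to 0.60, and on slide 2 only silicate 20 nm lay above 0. On slide 3 all lay near each other and low. The mean over the particle tubes of a slide was 12.91, 12.78 and 12.55, a range of 0.36, and the PBS levels spanned 1.62, or 3.08-fold. The 4 Cy3 readings of a slide differed by an SD of 0.03.

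The beta-globin probe of Hbb-bt followed the same course. Its level was 12.30, 11.33 and 11.38 in the gold 20 nm tubes of slides 1, 2 and 3, 12.26, 11.61 and 12.06 in the gold 100 nm tubes, 12.07, 13.33 and 12.13 in the silicate 20 nm tubes, and 11.95, 11.92 and 12.11 in the silicate 100 nm tubes. Its PBS level was 12.07, 12.82 and 13.55, a range of 2.79-fold. The silicate 20 nm tube of slide 2 was again the highest particle tube, by 1.03, and the gold 20 nm tubes of slides 2 and 3 were the lowest. The log2 ratios were 0.16, -1.47 and -2.06 with gold at 20 nm, 0.25, -1.13 and -1.60 with gold at 100 nm, 0.04, 0.42 and -1.42 with silicate at 20 nm, and -0.13, -0.90 and -1.43 with silicate at 100 nm. As for Hba-a1, 4 of the 12 ratios lay above 0, namely 3 on slide 1 and that of silicate 20 nm on slide 2.

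Alas2, whose enzyme joins glycine and succinyl-CoA in the mitochondria of red cell precursors, was much dimmer, with scanner signals of 111.5 to 294 in Cy5 and 142 to 350 in Cy3, but was well above background in both dyes on all 12 arrays. Its level was 7.54, 6.80 and 7.22 in the gold 20 nm tubes of slides 1, 2 and 3, 7.44, 7.19 and 7.30 in the gold 100 nm tubes, 7.36, 8.19 and 7.20 in the silicate 20 nm tubes, and 7.15, 7.28 and 7.03 in the silicate 100 nm tubes. Its PBS level was 7.46, 8.02 and 8.63, a range of 2.26-fold. The highest and the lowest particle tube were those of the globins. The log2 ratios were 0.04, -1.21 and -1.52 with gold at 20 nm, -0.04, -0.79 and -1.43 with gold at 100 nm, -0.10, 0.21 and -1.41 with silicate at 20 nm, and -0.24, -0.82 and -1.43 with silicate at 100 nm. On slide 3 the 4 ratios lay close together. With Agilent's processed signals in place of the corrected ones, the mean ratio of Alas2 over the 12 arrays was -1.01, against -0.73 here.

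**Figure D1:**
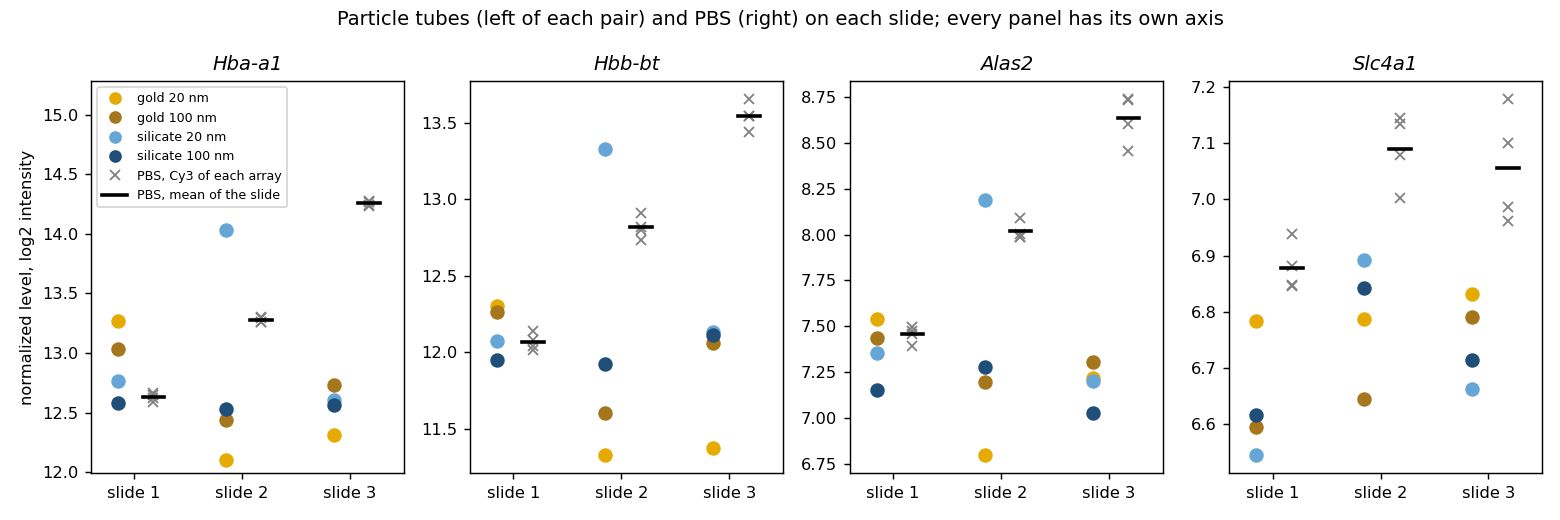
Normalized log2 intensity (vertical axis, a separate scale for each panel) of the 4 members by slide: filled circles are the particle tubes in Cy5, coloured by particle group, crosses are the Cy3 readings of PBS on the same arrays, and bars are the PBS mean of the slide. PBS reached 14.26 for Hba-a1 on slide 3, above the 4 particle tubes there, and the silicate 20 nm tube of slide 2 lay highest among the particle tubes for the first 3 genes.

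Slc4a1, which exchanges chloride for bicarbonate across the red cell membrane, behaved differently. Its levels were 6.78, 6.79 and 6.83 in the gold 20 nm tubes of slides 1, 2 and 3, 6.59, 6.65 and 6.79 in the gold 100 nm tubes, 6.55, 6.89 and 6.66 in the silicate 20 nm tubes, and 6.62, 6.84 and 6.71 in the silicate 100 nm tubes. Its PBS level was 6.88, 7.09 and 7.06, a range of 1.16-fold. On each slide every particle tube lay below the PBS of that slide, and across slides only the silicate 20 nm tube of slide 2, at 6.89, reached the lowest PBS level. The signal was weak, 94.5 to 114 in Cy5 over local backgrounds of 49 to 66, and 95 to 114 in Cy3 over 34 to 44. The probe was well above background on 11 of 12 arrays in Cy5 and on all 12 in Cy3.

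The log2 ratio of Slc4a1 was -0.06, -0.22 and -0.35 with gold at 20 nm, -0.25, -0.49 and -0.31 with gold at 100 nm, -0.34, -0.19 and -0.32 with silicate at 20 nm, and -0.32, -0.30 and -0.25 with silicate at 100 nm. All 12 ratios lay below 0, with slide means of -0.24, -0.30 and -0.31. Over all genes with a value on every array, 2.45% had 12 ratios below 0. Over the 12 arrays the mean was -0.28 here, -0.30 without background correction and -0.64 with processed signals. The mean thus kept its direction under these choices, and its size did not hold. Scanner signals before correction and normalization went both ways. Cy5 was 114 and Cy3 103 with silicate 20 nm on slide 2, and Cy5 was 102 and Cy3 111 with gold 100 nm there. The shared sign of the ratios is thus that of normalized values of a weak probe. A dye effect of this probe was not tested, since no array had the dyes exchanged.

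**Figure D2:**
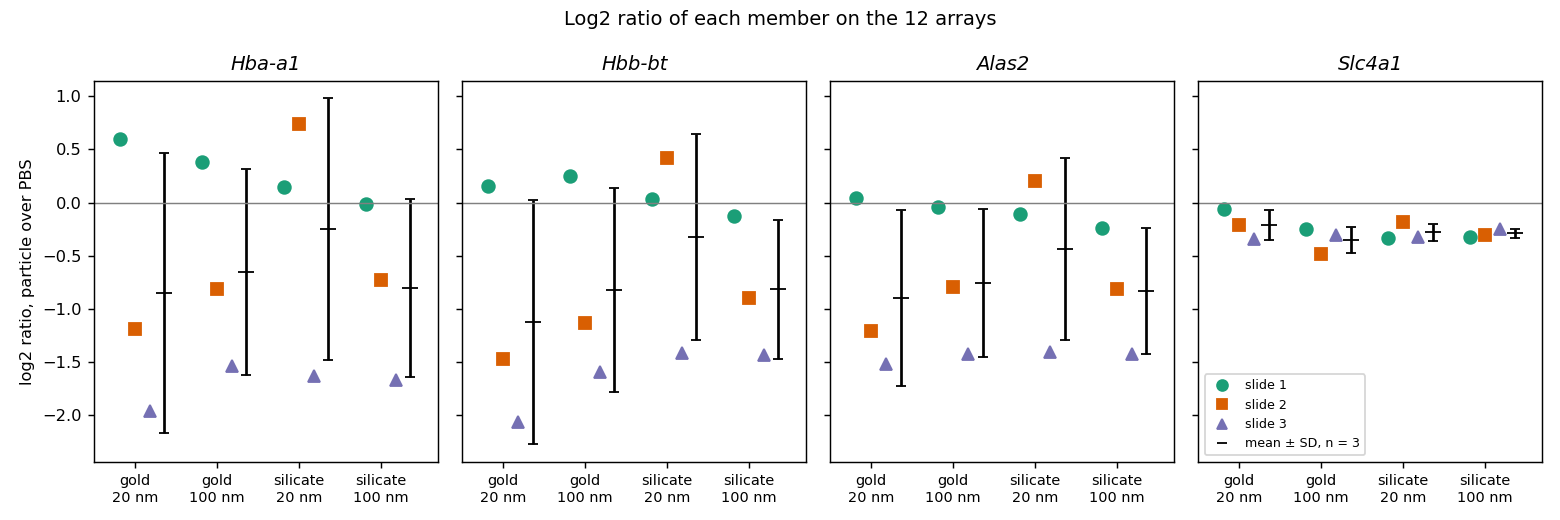
Log2 ratio of particle over PBS (vertical axis) for the 4 members in the 4 particle groups: symbols are the arrays of slides 1, 2 and 3, and black bars give the mean ± SD of 3 arrays. For Hba-a1, Hbb-bt and Alas2 the slides separate, with all ratios of slide 3 at -1.41 or lower, and for Slc4a1 all 12 ratios lie between -0.49 and -0.06.

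Slides accounted for 76.3% of the variance of the log2 ratio of Hba-a1 over the 12 arrays, for 70.8% for Hbb-bt, for 76.5% for Alas2 and for 7.93% for Slc4a1, beside a median of 48.7% over all genes tested. Particle groups accounted for 6.42%, 12.1%, 7.67% and 26%, beside a median of 15.5%. A range of PBS levels as large as that of Hba-a1 was seen for 4.3% of genes, as large as that of Hbb-bt for 4.87%, as large as that of Alas2 for 6.43% and as large as that of Slc4a1 for 70.5%. The median gene ranged over 0.31 (1.24-fold) between the PBS sides of the slides. The 2 globins and Alas2 were thus among the genes whose PBS levels differed most between slides, and Slc4a1 was not.

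Every particle group had mean log2 ratios below 0 for all 4 members, and only that of Slc4a1 with gold 100 nm passed the test. With gold 20 nm, Hbb-bt averaged -1.13 ± 1.15, Alas2 -0.90 ± 0.83, Hba-a1 -0.85 ± 1.32 and Slc4a1 -0.21 ± 0.14 (SD, n = 3 each). None passed limma's test with Benjamini-Hochberg adjustment over all genes at a threshold of 0.05 (adjusted p of 0.566, 0.564, 0.76 and 0.345), and 3 of the 4 had an unadjusted p under 0.05, as did 8.79% of all genes. In that comparison 0.706% of genes were called, and 0.0646% as lower. With the slide as a replicate block, Hbb-bt and Alas2 passed (adjusted p of 0.0432 and 0.0355), as did 4.47% of genes. That block removes the difference between the PBS tubes from the error, so its p-values leave out the spread of PBS.

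With gold 100 nm, Slc4a1 fell by 0.35 ± 0.12 on the log2 scale (SD, n = 3, adjusted p = 0.0491), in a comparison that called 0.977% of genes in either direction and 0.146% as lower. The call was lost with slide as a random block (adjusted p = 0.126, 0.676% of genes called), without any 1 of the slides, and without the silicate arrays of slide 3 (adjusted p = 0.0778) or the silicate 20 nm tube of slide 2 (adjusted p = 0.0676). It was also lost with processed signals (adjusted p = 0.128), without background correction (0.0572), with no filter (0.0531) and with all probes (0.0554). Hbb-bt averaged -0.83 ± 0.96, Alas2 -0.75 ± 0.70 and Hba-a1 -0.66 ± 0.97, with adjusted p of 0.589, 0.506 and 0.733. With the replicate block Alas2 passed (adjusted p = 0.0469), as did 6.71% of genes.

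Silicate 20 nm had the means closest to 0 for Hba-a1, Hbb-bt and Alas2 among the 4 groups, at -0.25 ± 1.23, -0.32 ± 0.97 and -0.43 ± 0.86, and Slc4a1 averaged -0.28 ± 0.08 (SD, n = 3 each). No member passed (adjusted p of 0.923, 0.86, 0.695 and 0.0761), 1 of 4 had an unadjusted p under 0.05, as did 15.5% of all genes, and 2.08% of genes were called, 0.495% as lower. With the random block 1.25% were called and no member. Without the array of slide 3, the mean ratios of the first 3 genes turned to 0.44, 0.23 and 0.05. With the replicate block Slc4a1 passed (adjusted p = 0.0409), as did 8.76% of genes.

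With silicate 100 nm, Alas2 averaged -0.83 ± 0.59, Hbb-bt -0.82 ± 0.65, Hba-a1 -0.80 ± 0.83 and Slc4a1 -0.29 ± 0.04 (SD, n = 3 each). Each lay below 0 on all 3 arrays, and none passed (adjusted p of 0.508, 0.65, 0.717 and 0.0976). Of the 4 members 1 had an unadjusted p under 0.05, as did 10.8% of all genes, and 0.99% of genes were called. With the replicate block Alas2 passed (adjusted p = 0.0461), as did 4.03% of genes.

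Over the 4 particle groups together, Alas2 and Slc4a1 were called lower. Alas2 fell by 0.73 ± 0.67 on the log2 scale, or 1.66-fold (SD, n = 12, adjusted p = 0.0368), and was lower on 10 of 12 arrays. Slc4a1 fell by 0.28 ± 0.10, or 1.22-fold (adjusted p = 0.000681), and was lower on 12 of 12. Hbb-bt averaged -0.77 ± 0.86 (adjusted p = 0.0665) and Hba-a1 -0.64 ± 0.97 (adjusted p = 0.171), each lower on 8 of 12. This comparison called 14.8% of all genes, and 6.34% as lower. In it, 5 of the 7 tested markers of pigment epithelium and melanocytes were called higher, with a list median of 1.68, and their part in the members' ratios was not tested.

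The 12 arrays of that test are taken to share 3 PBS tubes, and are then not independent measures of the difference from PBS. With slide as a random block, neither call held (adjusted p = 0.251 for Alas2 and 0.0814 for Slc4a1), and 1.69% of genes were called. The slide means were -0.09, -0.65 and -1.45 for Alas2, 0.08, -0.77 and -1.63 for Hbb-bt, and 0.28, -0.50 and -1.70 for Hba-a1. The size thus differed by slide, near 0 or above it on slide 1 and low on slide 3. The call of Alas2 was also lost with processed signals (adjusted p = 0.0869) and in the authors' deposited value table (0.0506). Without slide 3 the ratio of Alas2 was -0.37 (adjusted p = 0.18), without slide 2 it was -0.77 (0.266), without slide 1 it was -1.05 (0.0468), and without the silicate arrays of slide 3 it was -0.53 (0.0833). The ratio of Slc4a1 kept within -0.30 and -0.27 when a slide was left out, and did not pass without slide 2 (adjusted p = 0.0718). With the replicate block all 4 members passed, Hba-a1 at an adjusted p of 0.00892 and Hbb-bt at 0.00236, as did 34.8% of genes.

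No difference by material or by size passed the test for any member. Gold minus silicate was -0.23 for Hba-a1 (95% interval -1.52 to 1.07), -0.41 for Hbb-bt (-1.52 to 0.71), -0.19 for Alas2 (-1.08 to 0.69) and 0.01 for Slc4a1 (-0.15 to 0.16). The adjusted p were 0.938, 0.881, 0.92 and 0.986. The sign for Slc4a1 was negative with median centring, without background correction and in the authors' deposited value table. Within slides, gold minus silicate for Hba-a1 was 0.43 on slide 1, -1.01 on slide 2 and -0.10 on slide 3, so the slides did not share a direction. For Hbb-bt the same differences were 0.25, -1.06 and -0.41, and for Alas2 they were 0.18, -0.70 and -0.06. On slide 2 the difference held the high silicate 20 nm tube, and without that tube the contrast of Hba-a1 was 0.02.

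For 100 nm minus 20 nm, the difference was -0.18 for Hba-a1 (95% interval -1.48 to 1.12), -0.10 for Hbb-bt (-1.22 to 1.02), -0.13 for Alas2 (-1.01 to 0.76) and -0.08 for Slc4a1 (-0.23 to 0.08), all with an adjusted p of 1. Without the silicate 20 nm tube of slide 2 the differences of Hba-a1, Hbb-bt and Alas2 were 0.07, 0.09 and 0.03. No gene at all was called in either of these comparisons by limma (0% of genes), and no member had an unadjusted p under 0.05, against 5.19% of genes by material and 0.99% by size. With slide as a random block, 15 genes (0.0646%) were called for gold against silicate, none of them a member. The intervals of the globins are wide in both directions.

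**Figure D3:**
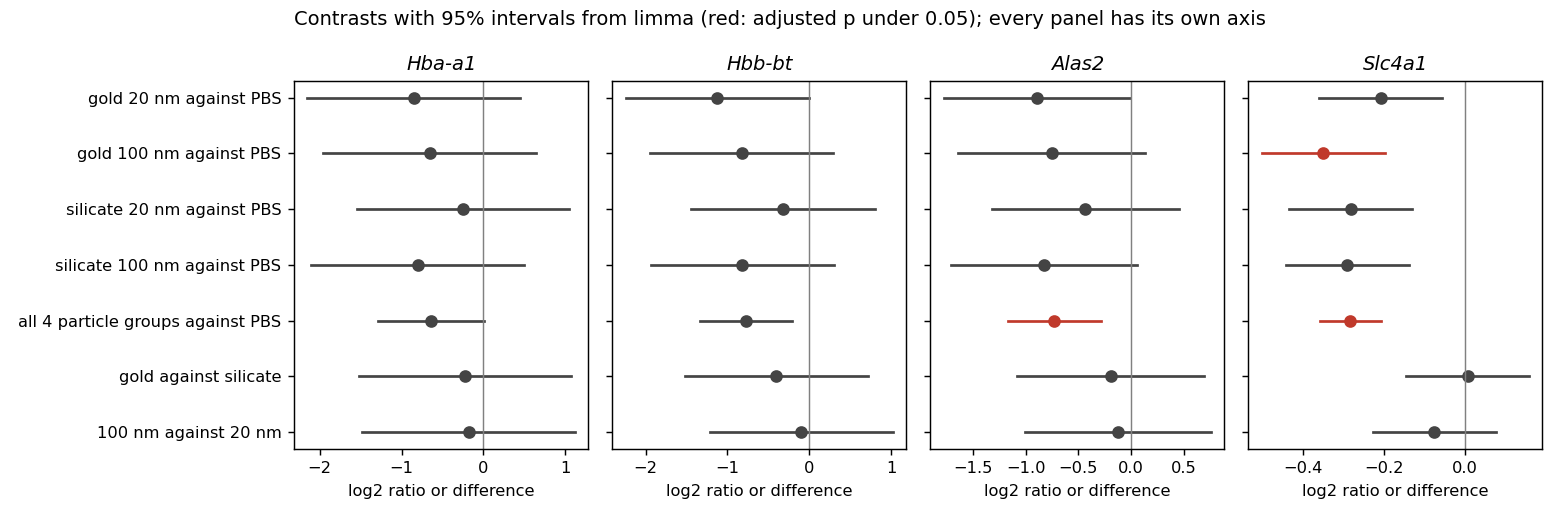
Log2 ratio or difference (horizontal axis, a separate scale for each panel) of the 4 members in 7 contrasts, with 95% intervals from limma, red where the adjusted p was under 0.05. Red stands at Alas2 and Slc4a1 for all 4 particle groups against PBS and at Slc4a1 with gold at 100 nm, and the intervals of Hba-a1 hold 0 in every contrast.

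Across the 12 particle tubes, the 2 globins and Alas2 varied together. The Cy5 levels of Hba-a1 and Hbb-bt correlated at Pearson's r = 0.952 and Spearman's rho = 0.923 (permutation p = 1e-05, the smallest that 100000 permutations can give, and 0.00011, n = 12). Those of Hba-a1 and Alas2 correlated at r = 0.954 and rho = 0.832 (permutation p of 3e-05 and 0.0016), and those of Hbb-bt and Alas2 at r = 0.879 and rho = 0.685 (0.0017 and 0.017). Adjusted over the 6 pairs of members, these p were 6e-05 and 0.00066, 9e-05 and 0.0048, and 0.0034 and 0.034. Without the 2 tubes farthest from the median, r was 0.896, 0.82 and 0.428. The relation of Hbb-bt and Alas2 thus weakened most, here without the silicate 20 nm and gold 20 nm tubes of slide 2. Within slides, with slide means removed, r was 0.956, 0.956 and 0.881.

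Slc4a1 did not follow the others: its r with Hba-a1, Hbb-bt and Alas2 was 0.235, 0.167 and 0.307, and rho was -0.126, -0.0909 and 0.154 (permutation p of 0.36 to 0.78, adjusted p of 0.54 to 0.78, n = 12). Without the 2 farthest tubes these r were -0.577, -0.29 and 0.02. The levels of Slc4a1 spanned 0.35 in all and lay close to the limit of detection.

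**Figure D4:**
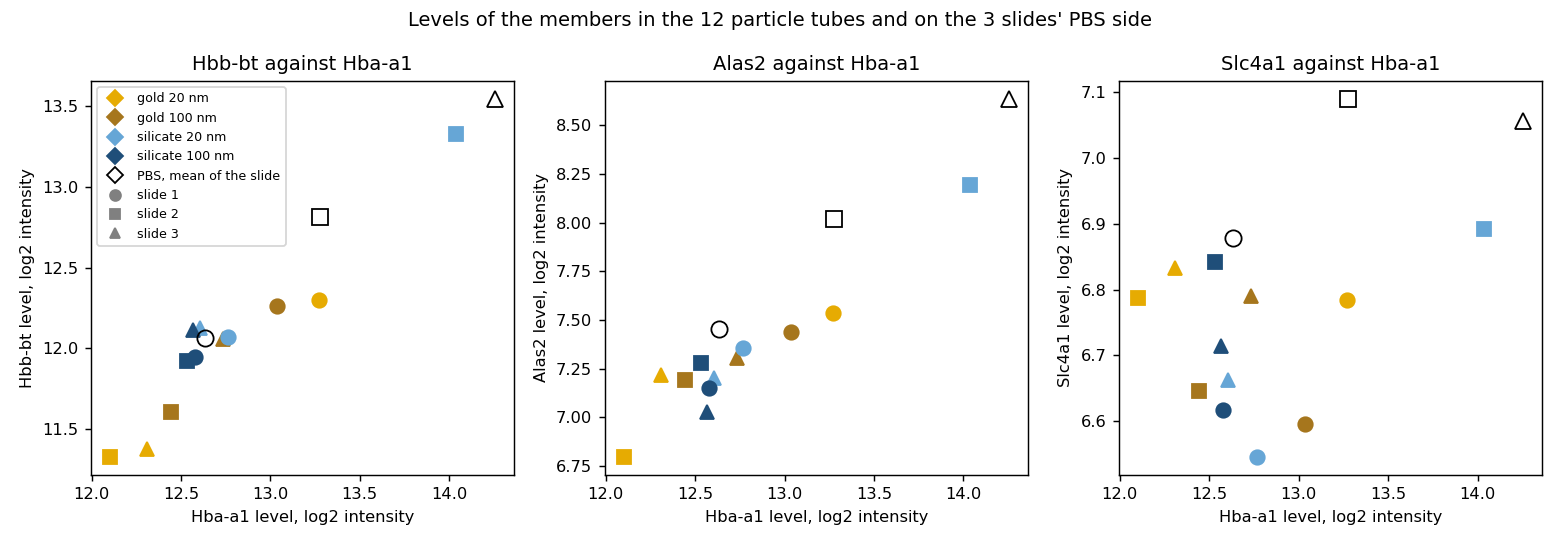
Level of Hbb-bt, Alas2 and Slc4a1 (vertical axes) against that of Hba-a1 (horizontal axis), all in log2 intensity: filled symbols are the 12 particle tubes, open black symbols the PBS means, and shapes give the slide. Hbb-bt and Alas2 rise along a line that ends in the silicate 20 nm tube of slide 2 and the PBS mean of slide 3, and Slc4a1 shows no such line.

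The difference of log2 ratios between 2 probes on the same array shows how closely they move. Hba-a1 minus Hbb-bt had an SD of 0.20 over the 12 arrays, Hba-a1 minus Alas2 one of 0.32 and Hba-a1 minus Slc4a1 one of 0.93. Against Hba-a2, whose transcript is nearly the same, the SD was 0.07, with differences of -0.17 to 0.04. Hba-a2 had PBS levels of 13.91, 14.47 and 15.76, and Hbb-b2, a beta-globin of other mouse haplotypes whose probe may read the beta-globins of C57BL/6, had 10.09, 10.80 and 11.46.

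By Pearson's r of the log2 ratio over the 12 arrays, the genes outside the members most like Hba-a1 were Hba-a2 (r = 0.998), Hbb-b2 (0.99) and the transcript listed as ENSMUST00000023934 (0.982), for which no gene name is given here. Named in the same order, these 3 came first for Hbb-bt too, at 0.984, 0.991 and 0.983, and for Alas2, at 0.996, 0.99 and 0.979. ENSMUST00000023934 had PBS levels of 8.76, 9.33 and 10 on slides 1, 2 and 3. For Slc4a1 the closest were XM_001001083 (0.829), NAP057397-1 (0.804) and Ebf2 (0.802). These r are descriptions over arrays that share PBS tubes.

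The ratios of the adult globins outside the members lay close to theirs. Of 9 further globin genes, 8 had a probe and 3 were tested. Hba-a2 averaged -0.57 (adjusted p = 0.199) and Hbb-b2 -0.54 (adjusted p = 0.138) over the 4 particle groups, and neither passed. Hbb-bh1, an embryonic beta-like globin, rose by 0.12 ± 0.07 (adjusted p = 0.0232, random block 0.368), at a dim level of 6.79 to 7.75 in particle tubes and 6.72 to 7.59 in PBS readings. Of the other embryonic chains, Hba-x was not well above background in either dye on any array, and the probes of Hbb-y were so in no Cy5 channel.

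Relatives of haemoglobin outside the red cell were also measured. Mb, the oxygen store of muscle, was called higher over the 4 groups (mean log2 ratio 1.01 ± 1.12, adjusted p = 0.0393, random block 0.505) and lay above 0 on 12 of 12 arrays, as 3.79% of genes did. Its ratio was large on 3 arrays, at 2.97 and 2.20 with silicate at 20 nm on slides 2 and 3 and at 3.05 with silicate at 100 nm on slide 3. It was well above background on 11 of 12 arrays in Cy5 and on 5 of 12 in Cy3, those 3 among them, and on no gold 20 nm array in Cy3, so the mean is no measured fold. Ngb, the globin of neurons, averaged 0.01 (adjusted p = 0.936), and Cygb, a globin of fibroblast-like cells and neurons, 0.14 (adjusted p = 0.561).

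The other steps of haem synthesis, which every cell carries out, did not share the pattern of Alas2. Over the 8 enzymes, all tested, 1 was called higher and 1 lower in the 4 groups together, where 14.8% of all genes were called, and none in any single group. Uros rose by 0.13 ± 0.08 (adjusted p = 0.0106, random block 0.296) and Urod, the next enzyme, fell by 0.17 ± 0.12 (adjusted p = 0.0169, random block 0.295). Alas1, the form of the first enzyme used outside red cells, averaged -0.11 (adjusted p = 0.687), and Fech, which puts iron into haem, 0.15 (adjusted p = 0.0529). The median of the list was -0.05, beside -0.01 for all genes tested.

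Of 17 genes of the red cell membrane and its skeleton, all had a probe and 12 were tested. Xk, a membrane protein of the Kell complex, was the only one called, 0.15 ± 0.13 higher over the 4 groups (adjusted p = 0.045, random block 0.405). In that comparison 14.8% of all genes were called. The brightest were Epb41 at a log2 ratio of 0.03, Aqp1, the water channel, at 0.21 and Ermap at -0.08 (adjusted p of 0.895, 0.059 and 0.268). Most of these genes are also used by other cells. Rhag, Epb42 and Kel, which are closer to the red cell, were not well above background in either dye on any array. The list median was 0.09.

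Of 8 erythroid transcription factors, 5 were tested, and none was called in any comparison. Of all genes, 14.8% were called over the 4 groups and 0.706% to 2.08% in single groups, so few calls would stand among 5 genes. Gata1, the master factor of red cell precursors, was not well above background on any array, and Klf1 was so in 1 Cy3 channel of 12 and in no Cy5 channel. Zfpm1, the partner of GATA1, averaged -0.09, Ldb1 0.06 and Lmo2 -0.20 over the 4 groups (adjusted p of 0.13, 0.345 and 0.669). The 6 markers of nucleated red cell precursors summed to 9.09 to 9.36 in particle tubes and to 9.06, 9.22 and 9.22 in PBS, without the steps that the globins had. Epor, the erythropoietin receptor, is the 1 of these markers that was tested.

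In the list of iron supply, red cell cytosol and maturation, 16 of 18 genes had a probe and 14 were tested, with 1 called higher and 1 lower over the 4 groups, a share like the 14.8% over all genes. Car1, the carbonic anhydrase abundant in red cells, fell by 0.18 ± 0.10 (adjusted p = 0.000998, random block 0.0868) and lay below 0 on 12 of 12 arrays. It also fell with gold 100 nm, by 0.26 ± 0.02, and with silicate 20 nm, by 0.27 ± 0.07 (SD, n = 3, adjusted p of 0.0349 and 0.0246, random block 0.0853 and 0.0511). A further, dimmer probe of Car1 was well above background in 1 channel of each dye and did not pass the filter. Like Slc4a1, Car1 lacked the steps between slides, at ratios of -0.33 to -0.01.

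Epor rose by 0.19 ± 0.18 over the 4 groups (adjusted p = 0.0457, random block 0.356). Of the brightest genes of this list, Car2, the carbonic anhydrase of many tissues, averaged 0.26 and Bnip3l, which clears mitochondria from young red cells, 0.05 (adjusted p of 0.0793 and 0.652). Slc25a37, the iron carrier of mitochondria in red cell precursors, averaged -0.44 ± 0.78 (adjusted p = 0.224). Its slide means were -1.37, -0.14 and 0.19, opposite in order to those of Alas2. The PBS level of Slc25a37 was 13.72 on slide 1, where neutrophil markers were also highest, and 12.38 and 12 on slides 2 and 3.

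Genes of haem breakdown and haemoglobin clearance, 9 of 10 tested, had no call in any comparison. Of all genes, 14.8% were called over the 4 groups and 0.706% to 2.08% in single groups. The ratios of this list moved with slide in another order than those of the globins. Their list median was -2.29, -2.02, -1.46 and -2 on slide 1, in the order gold then silicate and smaller then larger, between 0.03 and 0.12 on slide 2, and -0.08, -0.01, 1.35 and 1.05 on slide 3. Over the 4 groups, Fth1 and Ftl1, the chains of the iron store ferritin, averaged -0.38 and -0.19, and Hmox2, the constitutive haem oxygenase, 0.04 (adjusted p of 0.682, 0.815 and 0.745). The members, in the same arrays, had medians of 0.10, 0.11, -0.03 and -0.18 on slide 1, of -1.20, -0.81, 0.31 and -0.77 on slide 2, and of -1.74, -1.48, -1.41 and -1.43 on slide 3.

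**Figure D5:**
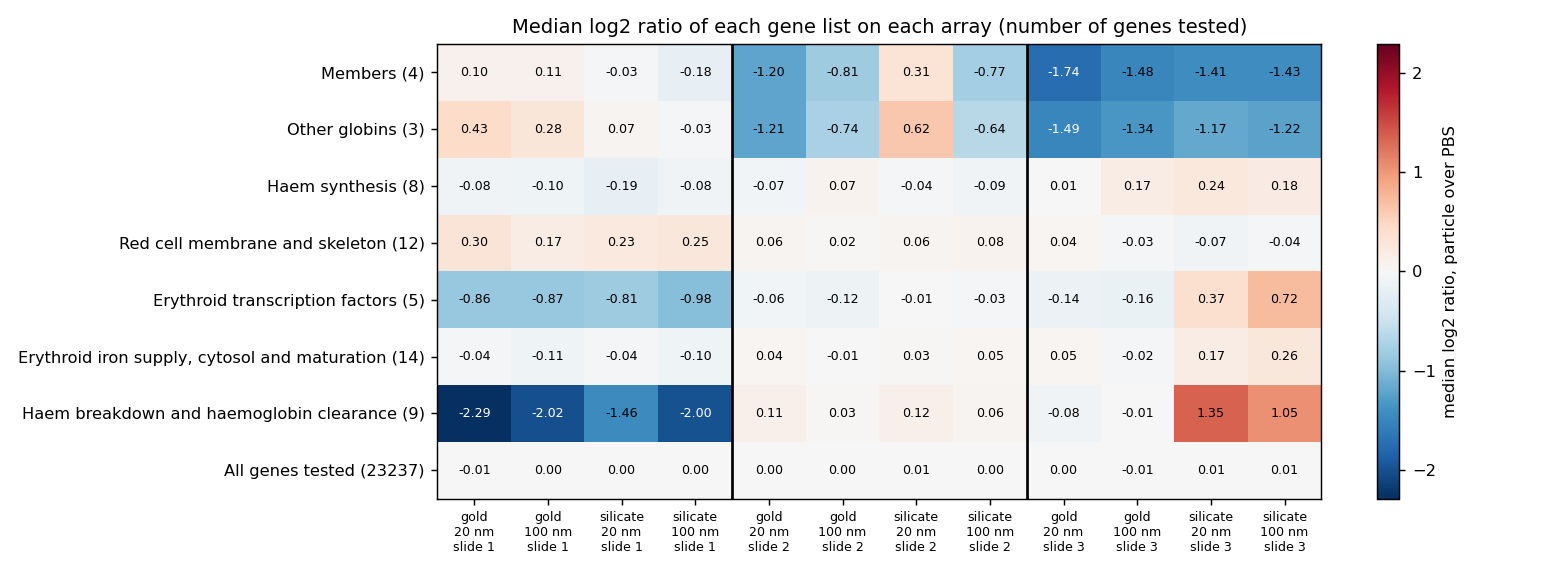
Median log2 ratio of particle over PBS (colour and printed value) of each gene list (rows, with the number of genes tested) on each array (columns, by slide, with the 4 particle groups in each). The members and the other globins are low on slide 3 and, except with silicate at 20 nm, on slide 2, and the list of haem breakdown is low on slide 1 and high in silicate on slide 3.

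The 10 marker lists were also set beside the globins on the PBS sides, and some had the same order of slides. With 3 slides, lists can share an order without any relation, and how many genes share it was not counted. On the PBS side of slides 1, 2 and 3, where Hba-a1 was 12.63, 13.28 and 14.26, 9 endothelial markers summed to 15.04, 14.32 and 14.30, 9 macrophage and microglia markers to 17.54, 13.30 and 14.26, and 7 platelet markers to 16.34, 9.29 and 10.03. Of the platelet sum on slide 1, Pf4 alone made up 98.4%, only 2 of the 7 were above background on all arrays, and Gp1ba never was, so this sum is that of Pf4. These 3 sums were highest on slide 1, where the globins were lowest. Markers of plasma proteins summed to 12.98, 14.29 and 14.71, those of pigment epithelium and melanocytes to 13.87, 14.77 and 15.45, both in the order of the globins. Those of rods summed to 19.17, 19.61 and 19.69, but on slide 3 the readings were 19.87 and 19.90 on the silicate arrays and 19.53 and 19.46 on the gold arrays, so that the gold arrays put slide 3 no higher than slide 2. Markers of the lens summed to 15.48, 18.52 and 18.02, also lowest on slide 1, and those of lymphocytes to 10.71, 10.47 and 10.44. Of the plasma protein list, Alb, Fga and Fgb were not well above background in either dye on any array, and only 2 of the 7 were on all arrays. Ttr alone made up 71.7% and 79.6% of the plasma protein sum on slides 2 and 3, and Apoa2 48.3% on slide 1. With Ttr left out, slides 2 and 3 had 12.47 and 12.41, which is not the order of the globins. Of the sum of pigment epithelium and melanocytes, Rlbp1 alone made up 79.9%, 69.8% and 39.7% on slides 1, 2 and 3. Its level was 13.55, 14.26 and 14.12, which is not the order of the globins. Without Rlbp1 that list had 11.56, 13.05 and 14.72, which is. In the silicate 20 nm tube of slide 2, the globins were highest among particle tubes. Endothelial markers there summed to 14.13, within the range of 13.88 to 15.64 over all particle tubes. Neutrophil markers summed to 13.83, against a PBS reading of 10.83 on that array and 10.81 to 12.86 in the other particle tubes of slide 2. Over all particle tubes the neutrophil sum ran from 10.59 to 17.74. The part of these lists in the globin levels was not tested.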

How the data were processed

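RNA of 12 particle tubes and of PBS-injected retina was compared on 12 two-colour arrays. The deposited intensity columns of the scanner files were extracted with Agilent's software Feature Extraction, whose version is 11.0.1.1 per the file headers and 9.3.2.1 per the submitters' processing notes. The deposited log10 ratio of Cy5 over Cy3 in those files gave the scale of the authors' deposited value table, which holds log2 ratios (slope 3.3 to 3.32, correlation = 0.942 to 0.995 across spots, column medians of 0.016, 0.033, 0.045, 0.056, 0.048, 0.045, 0.087, 0.048, 0.091, 0.074, 0.048 and 0.114 over the 12 arrays); its centring is unknown.

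Median signals were corrected with normexp (offset 50) and loess-normalized in each array, with 1377 control spots at weight 0, and 149 to 257 spots per array marked as outliers were left out. Levels of one channel were then brought to a common scale with Aquantile. Probes well above background in either dye on all 3 arrays of a group were kept (28460 of 39429), and the brightest stood for its gene. Names came from RefSeq accessions (GRCm38.p6, for names only, since the headers give mm9): 26055 of 32334 probes with such an accession matched.

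Log2 ratios were fitted with limma 3.58.1 in R 4.3.3, as 4 group means over all 12 arrays, and adjusted by Benjamini-Hochberg over all genes. The fit was tested on simulated data with noise drawn independently for each array. That test cannot show how the fit behaves where the arrays of a slide vary together, as they did here. With no statement on animals beyond pooling, p-values measure the spread between arrays, which the main fit takes as independent. Arrays of a slide are taken to share a PBS tube, and are then not independent measures of the difference from PBS. The number of arrays limits the precision. Slide and replicate number are the same, per the file headers, so the number pairs the arrays. Deviations from group means correlated at 0.889 to 0.934 on slide 1, 0.0812 to 0.831 on slide 2 and 0.554 to 0.919 on slide 3, across genes. Ratios of slide 1 and of silicate on slide 3 correlated at -0.728 to -0.541, and the stated dyes were kept as the direction. The members and lists were chosen with earlier results of these data known. Of related lists, every gene that passed a test and the 3 brightest were named, and of like genes the 3 with the highest r.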

Additional observations from a re-analysis of the deposited data

How the results depend on the processing

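Of 364 recomputed ratios of the 4 members, 346 kept their direction and 319 both their direction and their side of the threshold. The count of members called was 0, 1, 0, 0 and 2 for gold 20 nm, gold 100 nm, silicate 20 nm, silicate 100 nm and the 4 groups together. With the replicate block it was 2, 2, 1, 1 and 4, and the block changed no other member's call. For gold 100 nm it was 0 with processed signals, no background correction, no filter, all probes, the random block, without the silicate arrays of slide 3 and without the silicate 20 nm tube of slide 2 (this last alternative was chosen after seeing the data), and 0 to 0 when a slide was left out. For silicate 100 nm it was 1 in the value table. For the 4 groups it was 1 with processed signals, in the value table and without the silicate arrays of slide 3, 0 with the random block, and 0 to 3 when a slide was left out. Processed signals put Slc4a1 with gold 100 nm at -0.69.

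Turned signs were as follows. With silicate 20 nm, the ratios of Hba-a1, Hbb-bt and Alas2 were 0.44, 0.23 and 0.0513 without the silicate arrays of slide 3, and ranged from -0.74 to 0.44, -0.69 to 0.23 and -0.755 to 0.0513 when a slide was left out. For gold minus silicate, Slc4a1 was -0.0037 with median centring, -0.0057 without background correction and -0.0387 in the value table, Hba-a1 was 0.0207 without the silicate 20 nm tube of slide 2, and leaving out a slide gave -0.55 to 0.16 for Hba-a1, -0.38 to 0.0582 for Alas2 and -0.0749 to 0.0642 for Slc4a1. For 100 nm minus 20 nm, that same tube's removal gave 0.0665 for Hba-a1, 0.0865 for Hbb-bt and 0.0341 for Alas2, and leaving out a slide gave -0.37 to 0.0023 for Hba-a1, -0.26 to 0.0944 for Hbb-bt and -0.207 to -0.0375 for Alas2. The cause was not tested.

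Over all genes, 164, 227, 483, 230 and 3430 were called in the 5 comparisons with PBS. The replicate block called 1038, 1560, 2035, 936 and 8089, and leaving out a slide 8 to 52, 4 to 34, 8 to 176, 7 to 41 and 267 to 2111. Median centring called 350, 420 and 479 for gold 20 nm, gold 100 nm and silicate 100 nm, and put the share of higher calls at 75.9% for the 4 groups, beside 57.1%, and at 87.7% for silicate 20 nm, beside 76.2%. For silicate 20 nm, processed signals called 239, the random block 290, the authors' deposited values 321, no silicate arrays of slide 3 222, and no silicate 20 nm tube of slide 2 70. For silicate 100 nm, no silicate arrays of slide 3 called 129. For the 4 groups, processed signals called 2187 and the random block 393. Of the 9 calls among related genes, none held with the random block, all 9 held with the replicate block, and none turned sign. The signal of Slc4a1 was weak over background, and the size of its ratio moved with the correction.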

Other observations

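Outside the genes of the red cell and of haem, Zdhhc22, a member of the family that adds palmitate to proteins, chosen after its values were seen, followed Hba-a1 most closely by name after the globins (r = 0.977 of the log2 ratio over 12 arrays, which share PBS tubes). Its mean ratio was 0.27, 0.02 and -0.55 on slides 1, 2 and 3. Its level was 8.38 to 8.66, 8.49 to 9.22 and 8.19 to 8.41 in the particle tubes of those slides, against 8.22, 8.71 and 8.90 in PBS. Of all genes tested, 13 others had an r of at least 0.9 with Hba-a1, Hbb-bt and Alas2 among them.

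Hp, which binds free haemoglobin in plasma, and Hmox1, the inducible haem oxygenase, were also chosen after their values were seen. The level of Hp was 9.69 to 10.09, 6.57 to 7.89 and 6.71 to 13.31 in the particle tubes of slides 1, 2 and 3, against 14.30, 6.61 and 7.45 in PBS. Hmox1 was at 8.28 to 9.04, 7.35 to 9.19 and 7.33 to 9.68 in the particle tubes, against 11.48, 7.57 and 8.30 in PBS. Both had their highest PBS level on slide 1, where the PBS level of the globins was lowest, and neither passed over the 4 groups (adjusted p of 0.751 and 0.541).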
